A study of Mus musculus with 12 samples.

Results

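The BCL2 family decides whether a cell under stress opens its mitochondria and dies, and 10 of its genes were followed here: the guardians Bcl2, Bcl2l1 and Mcl1, the BH3-only genes Bcl2l11, Bbc3, Pmaip1, Bid and Bad, and the effectors Bak1 and Bax. Members were the probe sets, the groups of short probes that read 1 transcript, whose single gene symbol in the platform's annotation was 1 of these names. The rule found 23 of the 45141 probe sets, for 9 of the 10 genes. No probe set carried Bax as its single symbol in the table used, so Bax was not analysed here. In all, 22 of the 23 probe sets passed the filter on dim values, so all 9 genes were among the 12560 genes tested. The probe set left out was 1 of 4 for Bcl2l1, with group means of intensity between 12.25 and 13.53.

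The guardians hold the outer mitochondrial membrane closed by binding their pro-apoptotic relatives. BH3-only proteins carry stress signals: they occupy the guardians or activate BAX and BAK, which then form pores that release cytochrome c and start the caspases. In the bone marrow, withdrawal of cytokines such as IL-3 is a textbook trigger of this pathway through BIM and PUMA, the products of Bcl2l11 and Bbc3, and BCL2 is a drug target in acute myeloid leukaemia (AML).

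RNA from 12 cell samples had been hybridised to 1 array each, with 3 arrays in each of 4 groups. The B6 group was hematopoietic cells labelled wild type, and the Ts1Cje group was hematopoietic cells of the Ts1Cje mouse, a Down syndrome model with an extra copy of part of chromosome 16. The B6 Trib1 and Ts1Cje Trib1 groups were AML cell lines on those backgrounds that expressed Trib1, a pseudokinase, written as Trib1 WT in the sample titles. All 4 groups were grown untreated in medium that held IL-3 at 5 ng/ml and 10% serum, and 100 ng of total RNA was labelled. How many mice or lines each group stands for, and how Trib1 was driven, were not given in the sources used here. The p-values therefore rest on nothing but the spread among 3 arrays a group, and that spread may be technical. Leukaemic state and Trib1 expression went together in every sample and cannot be told apart.

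The deposited values were linear intensities. Array medians lay between 30.5 and 32.0, and arrays of 1 group correlated across genes at 0.997 to 0.999, against 0.915 to 0.993 for arrays of different groups. Differences are given as log2(intensity + 15), group minus group, so that differences of dim genes are drawn towards 0. Folds were computed from these differences and carry the same offset, so they are not ratios of the printed mean intensities. A gene was called where limma's test gave an adjusted p under 0.05 across the 12560 genes. Values after ± are standard deviations over n = 3 arrays unless named as a standard error (SE), and the number of arrays limits the precision. Intensities of different probe sets are not on a common scale, so levels are set against each other only within a probe set. These are bulk samples, in which fewer cells of a type and less RNA per cell cannot be told apart. None of the 10 genes lies on chromosome 16, and 2 of the 65 other listed pathway genes tested do. Whether those 2 lie within the part that is present in an extra copy was not examined.

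Promoter sequences are shown for the members whose expression moved most between the groups and whose windows held a searched motif. The 250 bases before each transcription start listed by RefSeq (GRCm38.p6) were searched on both strands for the FOXO motif GTAAACA, the cAMP response element TGACGT, the E-box CACGTG, the STAT motif TTCNNNGAA and the C/EBP motif TTGCNNCAA. Bcl2 had 1 window, chr1:106714291-106714540 on the minus strand, with a partial cAMP response element 107 bases before the start, shown in capitals. Bcl2l11 had 2 starts, and the first window, chr2:128125788-128126037 on the plus strand, held a FOXO motif 227 bases before the start. Bbc3 had 3 starts, and the second window held a FOXO motif on the opposite strand, 167 bases before the start, shown in capitals within chr7:16310082-16310111 on the plus strand. All run 5′ to 3′ on the strand of the gene.
Bcl2: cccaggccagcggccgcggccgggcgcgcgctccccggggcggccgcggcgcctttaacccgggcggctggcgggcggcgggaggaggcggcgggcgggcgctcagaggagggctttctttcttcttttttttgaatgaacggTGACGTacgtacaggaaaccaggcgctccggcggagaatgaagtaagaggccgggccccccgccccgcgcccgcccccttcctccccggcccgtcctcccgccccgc
Bcl2l11: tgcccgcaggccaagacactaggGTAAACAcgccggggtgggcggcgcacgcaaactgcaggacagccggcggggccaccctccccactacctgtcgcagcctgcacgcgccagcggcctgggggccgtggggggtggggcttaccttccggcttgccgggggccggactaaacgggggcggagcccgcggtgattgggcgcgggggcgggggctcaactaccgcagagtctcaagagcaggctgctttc
Bbc3: gtctggcgggttTGTTTACaaacaatgggg
Of 32851 promoter windows of the same length, 6.47% held the partial cAMP response element and 3.17% the FOXO motif. The third Bbc3 window also held an E-box, which 6.02% of windows held, and the STAT and C/EBP motifs were in 7.02% and 1.74%. The single Bax window held an E-box and a C/EBP motif. No searched motif was found in the windows of Bcl2l1, Mcl1, Bak1, Bad or Bid. Such matches describe letters in a window, not binding.

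Of the members tested, Bcl2 had the largest difference between Trib1 lines and hematopoietic cells in either genotype. It was also the only one of these members with a called interaction between genotype and Trib1. In both backgrounds the Trib1 lines had more RNA of the guardians Bcl2 and Bcl2l1 and less of the guardian Mcl1. They had more Bbc3, Pmaip1 and Bid and less Bcl2l11 and Bak1. Between B6 Trib1 and B6, 6 members rose and 3 fell, and their median log2 difference was 0.20 against 0.03 over all genes. In that comparison 65.2% of all genes passed, 34.1% higher and 31.1% lower. Between Ts1Cje Trib1 and Ts1Cje, 5 members rose, 3 fell and Bad did not pass, with a median of 0.24 against 0.02, where 60.8% of all genes passed, 34.1% higher and 26.8% lower. With so many genes passing, the count of members is no result by itself, and each member is described by its values. How many of all genes had groups without overlap was not counted. A lack of overlap between groups, given below for single members, is therefore a description and no result by itself.

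Genotype differences of the members ran from -0.79 to 0.38 on the log2 scale, both for Bcl2. Between Ts1Cje and B6 cells without Trib1, Bcl2, Bcl2l11 and Pmaip1 fell and Bad and Bbc3 rose, which is 5 of 9 members (median -0.04, 0.01 over all genes), where 52.6% of all genes passed, 23.3% higher and 29.3% lower. Between Ts1Cje Trib1 and B6 Trib1, Bcl2 rose and Mcl1, Bcl2l11 and Pmaip1 fell, which is 4 of 9 members (median -0.015, 0 over all genes), where 21.5% of all genes passed, 11.9% higher and 9.63% lower. That count was 2 without B6 Trib1 replicate 1 and 1 without Ts1Cje Trib1 replicate 2. The interaction, the genotype difference in the lines less the one in hematopoietic cells, passed for Bcl2 alone of the 9 members, where 48.6% of all genes passed, 28.4% higher and 20.2% lower. The number of members with an interaction was 3 after quantile normalization, 4 after median centring, 4 when a gene's probe sets were averaged, 2 with trend and robust moderation, and 2 without Ts1Cje replicate 2 or without B6 Trib1 replicate 3. Each group enters 2 of the 4 comparisons, so comparisons that share arrays are not independent.

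**Figure D1:**
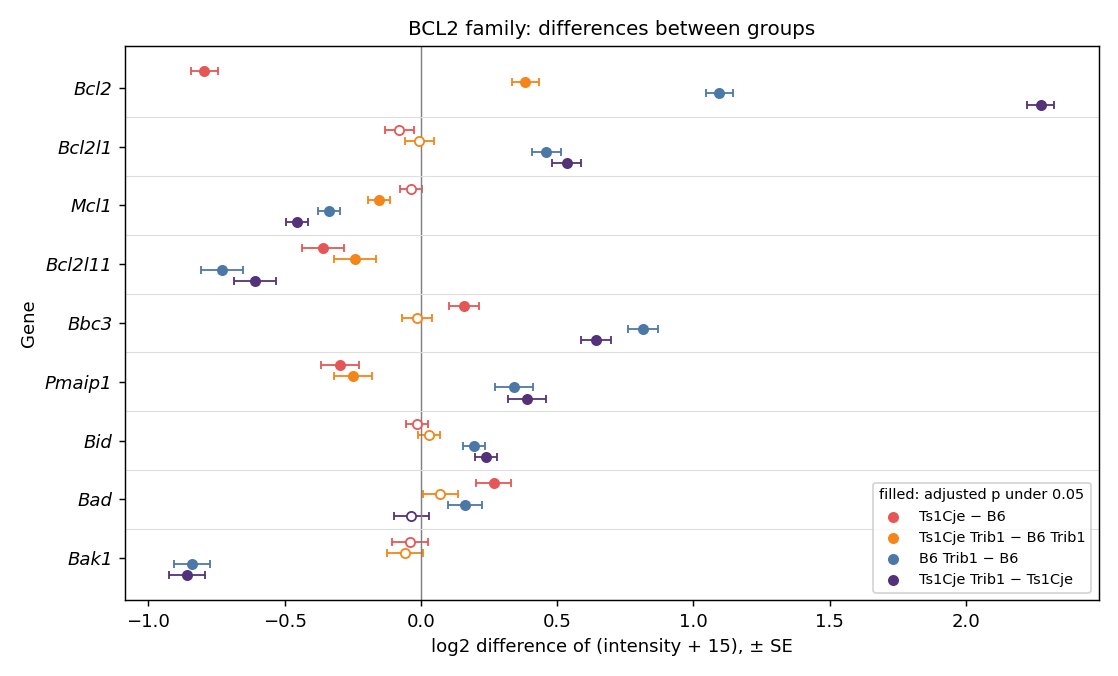
Log2 differences (x axis, log2 of intensity + 15, bars ± SE) of the 9 members (y axis) in the 4 comparisons between groups, filled where the adjusted p was under 0.05. Bcl2 lies at -0.79 for Ts1Cje minus B6 and at 2.27 for Ts1Cje Trib1 minus Ts1Cje, and the Bak1 differences of -0.84 and -0.86 are the lowest.

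Bcl2 encodes the founding guardian of the family. Its brighter probe set read 426, 432 and 421 on the B6 arrays, 253, 224 and 243 on the Ts1Cje arrays, 914, 984 and 893 on the B6 Trib1 arrays, and 1237, 1242 and 1172 on the Ts1Cje Trib1 arrays. No 2 of the 4 groups overlapped, and the order was Ts1Cje, B6, B6 Trib1, Ts1Cje Trib1. Group means were 239.8 ± 14.9, 427 ± 5.56, 930.1 ± 47.8 and 1217 ± 39.4 in that order. Without Trib1, Bcl2 was 1.74-fold lower in Ts1Cje than in B6 cells (-0.79 log2, SE 0.05, adjusted p = 4.3e-08). With Trib1, it was 1.3-fold higher in Ts1Cje than in B6 lines (0.38, adjusted p = 8.47e-05). The genotype difference thus had opposite signs with and without Trib1, and the interaction was 1.18 (SE 0.07, adjusted p = 2.83e-08). Among all genes tested, 0.677% had an interaction as large in that direction.

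From hematopoietic cells to Trib1 lines, Bcl2 rose 2.14-fold in the B6 background (1.10, adjusted p = 3.6e-10) and 4.84-fold in the Ts1Cje background (2.27, adjusted p = 1.05e-13). Rises as large were seen for 2.25% and 0.788% of all genes. The dimmer Bcl2 probe set, tested in the fit of all 28543 kept probe sets, gave the same directions from lower readings. It read 90.4, 91.5 and 82.6 on the B6 arrays, 56.4, 66.4 and 74.7 on the Ts1Cje arrays, 200.3, 199.9 and 191 on the B6 Trib1 arrays, and 292, 299 and 292 on the Ts1Cje Trib1 arrays. These groups did not overlap either. Its differences were -0.36 between genotypes without Trib1 (adjusted p = 0.000818), 0.54 with it (adjusted p = 8.45e-05) and 0.90 for the interaction (adjusted p = 9.39e-06). With 1 array left out at a time, the interaction of the brighter probe set stayed between 1.13 and 1.22.

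**Figure D2:**
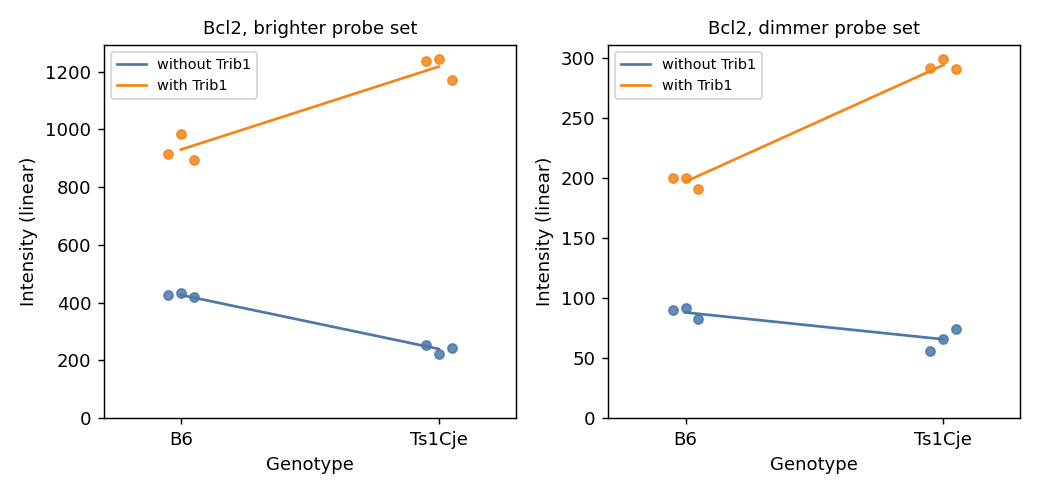
Intensity (linear, y axis) of both Bcl2 probe sets on each of the 12 arrays by genotype (x axis), without Trib1 (blue) and with Trib1 (orange), with lines between group means. The blue lines fall from B6 to Ts1Cje (427 to 239.8 for the brighter probe set) and the orange lines rise (930.1 to 1217).

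Markers of several blood lineages differed between the same groups as Bcl2, and their part in its differences was not tested. The counts of markers are to be read against the share of all genes that passed. It was 52.6% for Ts1Cje against B6, and 65.2% and 60.8% for the B6 and Ts1Cje lines against hematopoietic cells. In Ts1Cje against B6, 9 of the 10 B cell progenitor markers tested fell, and their summed intensity was 6816 to 7099 in B6 and 2753 to 2828 in Ts1Cje cells, and 278 to 312 in B6 Trib1 and 291 to 319 in Ts1Cje Trib1 lines. The B cell sums and Bcl2 were both lower in Ts1Cje than in B6 cells, while in the lines the sums were lowest and Bcl2 highest. Of the 10 markers, 3 and 4 were dim on all arrays of the 2 line groups. Of 14 T and NK cell markers, 10 fell and 2 rose in Ts1Cje against B6, with sums of 2762 to 2948 in B6 and 2385 to 2457 in Ts1Cje cells, and 10710 to 10970 in B6 Trib1 and 11800 to 12410 in Ts1Cje Trib1 lines. In the lines of both backgrounds the list was split, with 6 of the 14 higher and 7 lower than in hematopoietic cells. Granzyme B (Gzmb), which mast cells can also make, gave most of the line sums, at 6955 ± 131 and 7613 ± 246, and Gzma, Nkg7, Thy1, Lat and Cd7 were the others with higher means in both line groups. The CD3 genes Cd3d, Cd3e and Cd3g and the T cell factor gene Bcl11b were among those with lower means there, with Cd3g at 22.54 ± 2.51 and 20.31 ± 0.705. No marker list had a member at 0.

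The neutrophil granule and monocyte lists had no dim marker in any group. Between genotypes, 52.6% of all genes passed without Trib1 and 21.5% with it. Of 13 neutrophil granule markers 12 rose in Ts1Cje against B6 and 11 fell between the line groups, lower in Ts1Cje Trib1, with sums of 24720 to 25170, 39240 to 40130, 20030 to 20330 and 11180 to 11460 in B6, Ts1Cje, B6 Trib1 and Ts1Cje Trib1. Of 12 monocyte and macrophage markers 10 rose and then 8 fell in the same 2 comparisons, with sums of 10830 to 11080, 16920 to 17090, 8438 to 8709 and 5340 to 5378. These 2 lists ran opposite to Bcl2 in both genotype comparisons. All 9 mast cell and basophil markers and all 7 megakaryocyte markers tested rose in the Trib1 lines of both backgrounds. In those comparisons 65.2% (B6) and 60.8% (Ts1Cje) of all genes passed. In Ts1Cje against B6, 5 of the 7 megakaryocyte markers fell and 1 rose (median -0.95), and between the line groups 5 fell (median -0.27). Of the 9 mast cell markers, 5 rose and 2 fell in the first of these comparisons and 3 rose and 4 fell in the second. Mast cell sums were 3388 to 3425, 5110 to 5382, 20430 to 20750 and 22850 to 23750, and megakaryocyte sums were 7092 to 7358, 6172 to 6379, 14430 to 14750 and 12090 to 12740, in the same order of groups. Of the remaining lists, 7 of 8 stem and progenitor markers fell and 1, Prom1, rose in Ts1Cje against B6, and 2 of 5 erythroid markers fell and none rose. In that comparison 3 of 5 eosinophil markers rose, and 3 fell between the line groups. Eosinophil sums were 1636 to 1800 in B6 and 5012 to 5156 in Ts1Cje cells. They were 1258 to 1342 in B6 Trib1 and 530.3 to 537.4 in Ts1Cje Trib1 lines, with 1 marker dim in each line group. Rnase2a gave most of the sums without Trib1, at 1324 ± 68.6 and 4260 ± 57.3, and read 12.97 ± 0.5 and 15.39 ± 0.845 in the lines. Against hematopoietic cells, 2 eosinophil markers rose and 1 fell in the B6 lines, and 1 rose and 3 fell in the Ts1Cje lines. In the lines of both backgrounds, 3 stem and progenitor markers were higher and 5 lower than in hematopoietic cells. Erythroid markers rose there, 4 of the 5 in the B6 lines and 3 in the Ts1Cje lines, and none fell. Stem and progenitor sums lay between 1553 and 2021 and erythroid sums between 3599 and 5750 over all arrays. The part of these lists in the members' differences was not tested.

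Bcl2l1, which encodes the guardian BCL-XL, rose in the Trib1 lines and did not differ detectably between genotypes. It read 314, 304 and 309 in B6 and 294.5, 272 and 308 in Ts1Cje cells, and 449.6, 427 and 415 in B6 Trib1 and 449, 442 and 398 in Ts1Cje Trib1 lines. Every line array was above every array of hematopoietic cells, and the genotypes overlapped within each pair of groups. The rise was 0.46 in the B6 background (adjusted p = 6.71e-06) and 0.53 in the Ts1Cje background (adjusted p = 1.08e-06). Genotype differences were -0.08 without Trib1 (adjusted p = 0.228) and -0.005 with it (adjusted p = 0.971). With the mean of the gene's probe sets the B6 rise was 0.74.

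Mcl1 encodes a short-lived guardian that many blood cells depend on. It read 2837, 2843 and 2874 in B6 and 2929, 2696 and 2721 in Ts1Cje cells, and 2255, 2198 and 2308.5 in B6 Trib1 and 2012, 1995 and 2071 in Ts1Cje Trib1 lines. The line groups lay below the hematopoietic groups and did not overlap each other, whereas B6 and Ts1Cje overlapped. With Trib1, Mcl1 fell by 0.34 on the B6 background (adjusted p = 6.61e-06) and by 0.45 on the Ts1Cje one (adjusted p = 2.34e-07), from 2851 ± 19.9 to 2254 ± 55.5 and from 2782 ± 128 to 2026 ± 39.7. It was also lower in Ts1Cje Trib1 than in B6 Trib1 lines (-0.15, adjusted p = 0.014), and this call was lost without Ts1Cje Trib1 replicate 2 (adjusted p = 0.0554). The interaction of -0.12 did not pass (adjusted p = 0.102), but did with median centring (-0.21, adjusted p = 0.00904), with probe sets averaged (-0.25, adjusted p = 0.00176) and with trend and robust moderation (adjusted p = 0.0363). Among the guardians followed as members, Bcl2 and Bcl2l1 thus differed in 1 direction and Mcl1 in the other in both backgrounds.

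Bcl2l11 encodes BIM, a BH3-only protein that binds all the guardians. It read 528, 473 and 485 in B6 and 356, 397 and 394 in Ts1Cje cells, and 291, 307 and 279 in B6 Trib1 and 227, 228 and 284 in Ts1Cje Trib1 lines. B6 was above Ts1Cje and both were above the lines with no overlap, while the 2 line groups overlapped at 1 array. It fell by 0.73 from B6 to B6 Trib1 (adjusted p = 2.46e-06) and by 0.61 from Ts1Cje to Ts1Cje Trib1 (adjusted p = 1.07e-05). Without Trib1 it was 1.28-fold lower in Ts1Cje than in B6 (-0.36, adjusted p = 0.00174). The difference between the line groups, -0.24 (adjusted p = 0.0421), was a marginal call. It was lost in a fit of only the groups compared (adjusted p = 0.0732) and with median centring, an offset of 1, a floor or no filter (adjusted p 0.0529 to 0.0674). It was also lost without B6 replicate 2 or 3, Ts1Cje replicate 3, B6 Trib1 replicate 1 or 2, or Ts1Cje Trib1 replicate 1 or 2 (adjusted p 0.0508 to 0.16). With probe sets averaged it was -0.15 (adjusted p = 0.00577), and the interaction, 0.12 here (adjusted p = 0.378), then passed at 0.13 (adjusted p = 0.0384).

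Bbc3 encodes PUMA, a BH3-only protein induced by p53 and by FOXO factors. It read 108, 109 and 102 in B6 and 119, 126 and 116 in Ts1Cje cells, and 198, 212 and 187 in B6 Trib1 and 203, 207 and 181 in Ts1Cje Trib1 lines. The line arrays were all above the hematopoietic arrays, and the 2 line groups overlapped. Bbc3 rose 1.76-fold in the B6 background (0.82, adjusted p = 2.41e-08) and 1.56-fold in the Ts1Cje background (0.64, adjusted p = 2.02e-07). Without Trib1 it was higher in Ts1Cje than in B6 by 0.16 (adjusted p = 0.0296), a call that was lost without B6 replicate 1 (adjusted p = 0.051), B6 replicate 3 (0.105) or Ts1Cje replicate 2 (0.108), and the difference was 0.25 after quantile normalization. Between the line groups the difference was -0.01 (adjusted p = 0.891). The interaction of -0.17 did not pass (adjusted p = 0.0836), but did with quantile normalization (-0.29, adjusted p = 0.0147), with median centring (-0.26, adjusted p = 0.0265) and without B6 Trib1 replicate 3 (adjusted p = 0.0395).

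Bcl2l11 and Bbc3, whose printed windows each hold a FOXO motif, thus differed in opposite directions between the lines and the hematopoietic cells. Foxo3, which encodes a FOXO factor, had a mean of 454 ± 7.38 in B6 and 424 ± 27.4 in Ts1Cje cells, and 727 ± 22.5 in B6 Trib1 and 753 ± 17.9 in Ts1Cje Trib1 lines. Its rises of 0.66 and 0.81 passed in both backgrounds (adjusted p = 3.16e-08 and 2.59e-09). Its genotype differences of -0.09 and 0.05 did not (adjusted p = 0.101 and 0.514). Foxo4, a further FOXO gene of the list, named after its values were seen, had another pattern. Its means were 143 ± 6.47 in B6 and 151.5 ± 10.1 in Ts1Cje cells, and 137.5 ± 2.78 in B6 Trib1 and 114 ± 6.69 in Ts1Cje Trib1 lines. It fell by 0.37 from Ts1Cje to Ts1Cje Trib1 (adjusted p = 2.88e-05) and was lower in Ts1Cje than in B6 lines (-0.25, adjusted p = 0.00415), while its difference of -0.05 from B6 to B6 Trib1 did not pass (adjusted p = 0.423). Foxo1, also listed, was not among the genes tested. An RNA level says nothing of whether the protein is in the nucleus, where FOXO factors act. The part of FOXO factors in the differences of Bcl2l11 and Bbc3 was not tested.

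Pmaip1 encodes NOXA, a BH3-only protein that binds MCL1. It read 538, 508 and 539.9 in B6 and 467, 436 and 382.5 in Ts1Cje cells, and 681, 629 and 714 in B6 Trib1 and 599, 569 and 527 in Ts1Cje Trib1 lines. Ts1Cje arrays were below B6 arrays, and Ts1Cje Trib1 arrays below B6 Trib1 arrays, with no overlap. The genotype difference was -0.30 without Trib1 (adjusted p = 0.00328) and -0.25 with it (adjusted p = 0.0214). Pmaip1 rose with Trib1 by 0.34 in B6 (adjusted p = 0.000911) and 0.39 in Ts1Cje (adjusted p = 0.00027). The genotype call in the lines was lost without B6 Trib1 replicate 1 (adjusted p = 0.0683), B6 Trib1 replicate 3 (0.0723), Ts1Cje Trib1 replicate 2 (0.0525) or Ts1Cje Trib1 replicate 3 (0.0889). The interaction of 0.05 did not pass (adjusted p = 0.708).

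Bid, which links death receptors to the mitochondria after cleavage by caspase 8, had group means of 568 ± 21.9 in B6 and 562 ± 16.3 in Ts1Cje cells, and 652 ± 15.3 in B6 Trib1 and 666 ± 17.2 in Ts1Cje Trib1 lines. It rose by 0.20 and 0.24 in the lines (adjusted p = 0.000916 and 0.000151), and the genotypes differed by -0.01 and 0.03 (adjusted p = 0.791 and 0.672). The B6 rise was 0.30 after median centring. Bad, a BH3-only protein held inactive by phosphorylation downstream of growth factors, read 289, 279.6 and 309 in B6 and 395, 331 and 341 in Ts1Cje cells, and 349, 309.7 and 328 in B6 Trib1 and 348, 354 and 336 in Ts1Cje Trib1 lines. No B6 array reached any array of the other 3 groups, which overlapped each other. Ts1Cje was 0.27 higher (adjusted p = 0.00352) and B6 Trib1 0.16 higher (adjusted p = 0.0401). Between the line groups the difference was 0.07 (adjusted p = 0.491), and between Ts1Cje Trib1 and Ts1Cje it was -0.03 (adjusted p = 0.671). The B6 Trib1 call was lost without B6 replicate 1 (adjusted p = 0.0941), B6 replicate 2 (0.135), B6 Trib1 replicate 1 (0.156), B6 Trib1 replicate 3 (0.0701) or Ts1Cje Trib1 replicate 1 (0.0507). It was also lost with median centring over all probe sets (0.14, adjusted p = 0.103). The difference was 0.27 after median centring over kept probe sets (adjusted p = 0.000741) and 0.25 with the mean of the probe sets. The Bad interaction of -0.20 did not pass (adjusted p = 0.0883), but did with quantile normalization (adjusted p = 0.0141), with median centring (0.00864), with probe sets averaged (0.0105) and without Ts1Cje replicate 2 (0.0466).

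Bak1 encodes BAK, 1 of the pore-forming effectors. Its brighter probe set read 348, 373 and 363 in B6 and 372, 315 and 368 in Ts1Cje cells, and 192, 191 and 202 in B6 Trib1 and 197, 195 and 169 in Ts1Cje Trib1 lines. The line arrays lay below all hematopoietic arrays, and the genotypes overlapped in both pairs of groups. Bak1 was 1.79-fold lower in B6 Trib1 than in B6 (-0.84, adjusted p = 1.17e-07) and 1.81-fold lower in Ts1Cje Trib1 than in Ts1Cje (-0.86, adjusted p = 6.7e-08). Genotype differences were -0.04 and -0.06 (adjusted p = 0.616 and 0.617). A dim second probe set, whose identifier marks possible cross-hybridization, went the other way, with means of 24.27 ± 0.472, 32.96 ± 2.52, 31.59 ± 0.618 and 43.84 ± 5.8 in B6, Ts1Cje, B6 Trib1 and Ts1Cje Trib1. It rose by 0.25 and 0.29 in the lines and was 0.29 and 0.33 higher in Ts1Cje. With both probe sets averaged, Bak1 still fell by 0.30 and by 0.28 in the lines. Averaging turned the genotype differences to 0.12 (adjusted p = 0.0287) and 0.14 (adjusted p = 0.0358).

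**Figure D3:**
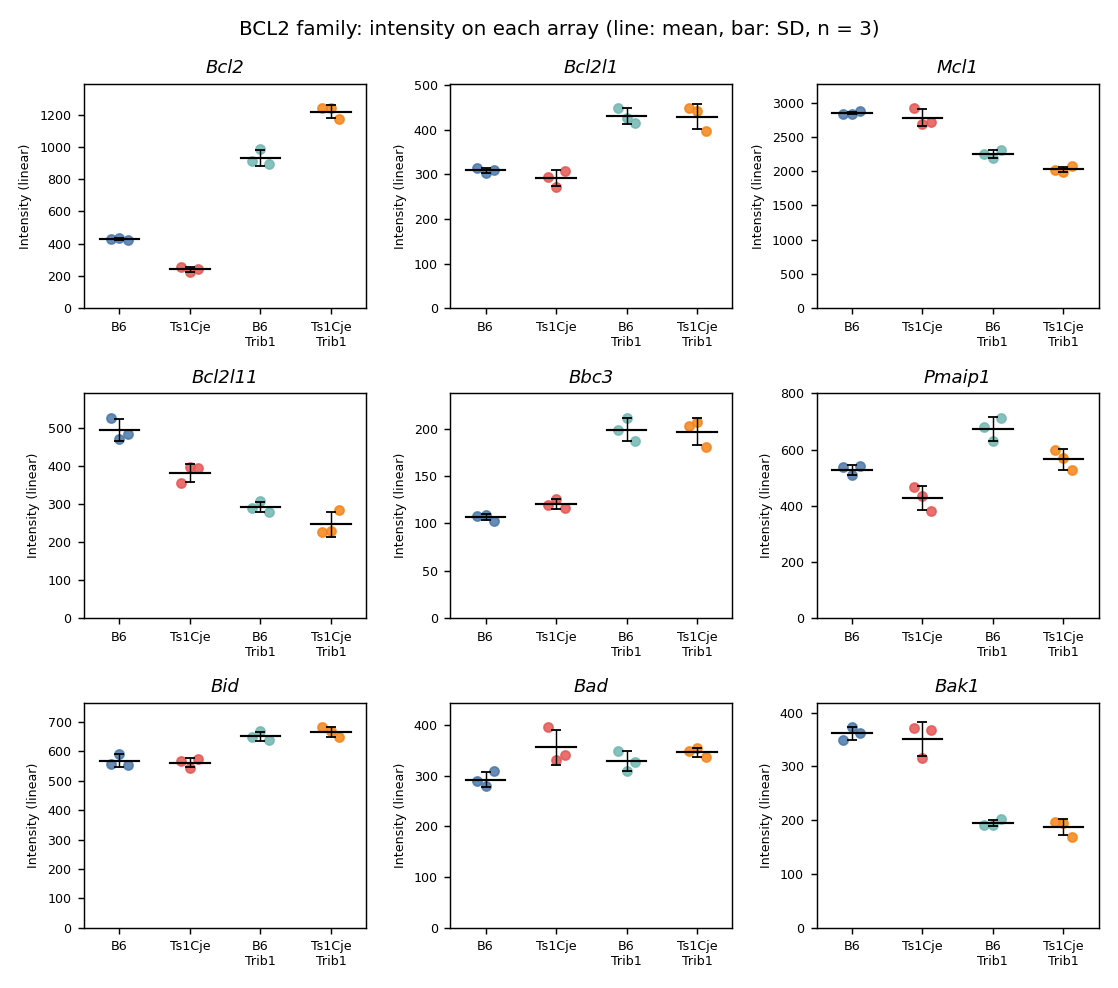
Linear intensity (y axes, from 0) of the representative probe set of each of the 9 members on each of the 12 arrays by group (x axes), with group mean and SD over 3 arrays. In Bcl2, Bcl2l1, Bbc3 and Bid every line array lies above every hematopoietic array, and in Mcl1, Bcl2l11 and Bak1 every line array lies below. The share of all genes that separate in this way was not counted.

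Members with several probe sets were also compared probe set by probe set in the fit of 28543 probe sets. In that fit 46.9% of probe sets passed for Ts1Cje minus B6, 15.7% for Ts1Cje Trib1 minus B6 Trib1, 60.7% for B6 Trib1 minus B6, 54.1% for Ts1Cje Trib1 minus Ts1Cje and 42% for the interaction. All 3 kept Bcl2l1 probe sets rose with Trib1 in both backgrounds, from 0.46 to 1.07 in B6 and from 0.53 to 0.90 in Ts1Cje. The dimmest of them was also 0.27 higher in Ts1Cje than in B6 (adjusted p = 0.0213). All 3 Mcl1 probe sets fell with Trib1 in both backgrounds and were lower in Ts1Cje Trib1 than in B6 Trib1, with differences of -0.15, -0.15 and -0.21. For Ts1Cje against B6 they disagreed: 1 rose by 0.25 (adjusted p = 0.00033), and the others had -0.04 and 0.01. The interaction passed for 2 Mcl1 probe sets (-0.40, adjusted p = 0.000155, and -0.22, adjusted p = 0.0331), but not for the representative (-0.12, adjusted p = 0.125).

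All 5 Bcl2l11 probe sets fell with Trib1 in both backgrounds, from -0.83 to -0.36 in B6 and from -0.61 to -0.29 in Ts1Cje. In Ts1Cje against B6, 4 of the 5 fell, from -0.51 to -0.25. Between the line groups 1 of the 5 passed (-0.36, adjusted p = 0.000215), and the representative did not in this fit (adjusted p = 0.0559). The interaction passed for 1 of the 5 (0.32, adjusted p = 0.0199). Both Bad probe sets were higher in Ts1Cje than in B6, and the dimmer one had an interaction of -0.28 (adjusted p = 0.00502). The second Bid probe set rose by 0.61 and 0.48 in the lines, and the third, which is marked for cross-hybridization and had group means between 32.11 and 35.98, passed in no comparison. Bbc3 and Pmaip1 had 1 probe set each.

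**Figure D4:**
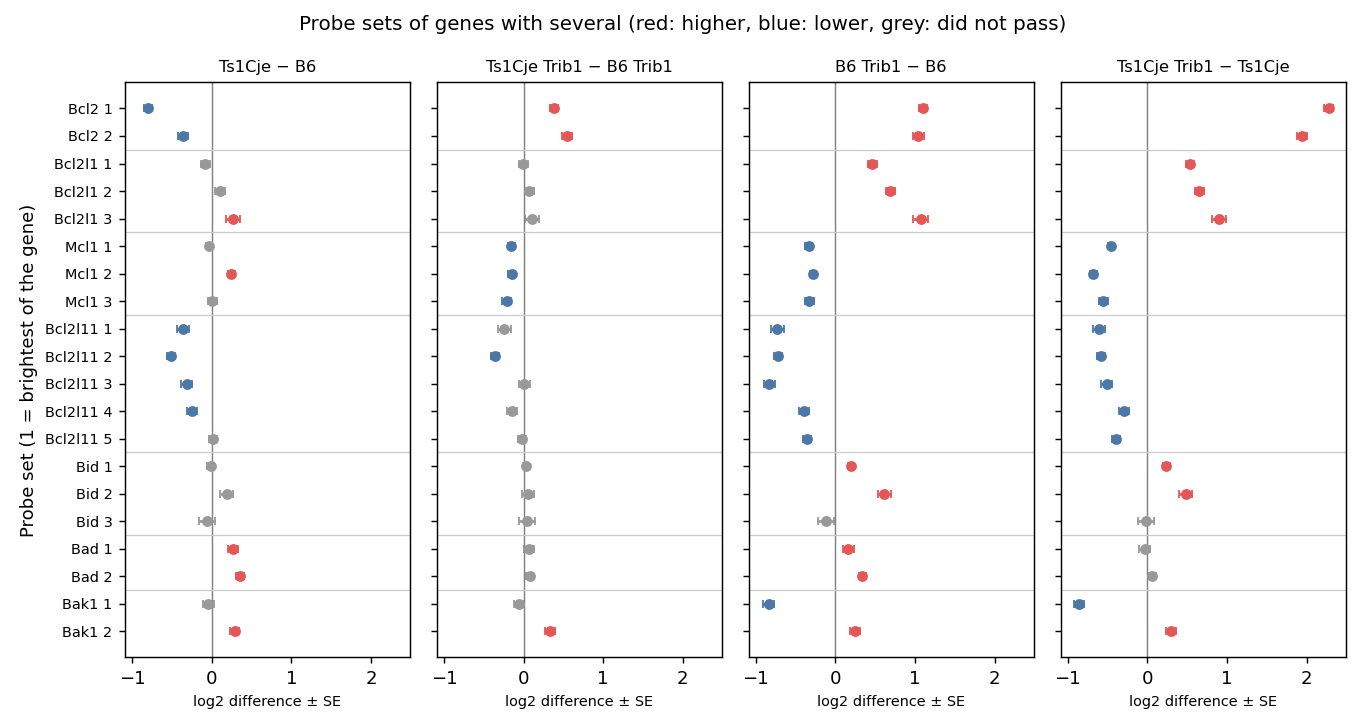
Log2 differences (x axes, ± SE) of the kept probe sets of the 7 members with several (y axis, 1 is the brightest of a gene) in the 4 comparisons, red where higher, blue where lower and grey where the adjusted p was 0.05 or more. The Trib1 panels show 1 colour per gene for Bcl2, Bcl2l1, Mcl1 and Bcl2l11 and both colours for Bak1.

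Among the other genes of the BCL2 family, 11 genes were tested, from a list of 17 symbols. In B6 Trib1 against B6, 7 rose and 3 fell (median 0.20, 0.03 over all genes), and in Ts1Cje Trib1 against Ts1Cje, 3 rose and 4 fell (median 0.05, 0.02). Between genotypes without Trib1, 4 of the 11 passed and each was higher in Ts1Cje (median 0.09), and between the line groups 1 rose and 2 fell (median -0.06). Among all genes 52.6% and 21.5% passed in the genotype comparisons, and 65.2% and 60.8% in the comparisons of lines with hematopoietic cells. Bnip3, a BH3-like gene of mitochondrial clearance, rose from 428 ± 13.6 in B6 to 924.5 ± 12.3 in Ts1Cje, or 1.09 (adjusted p = 6.7e-10), and was 0.33 higher in Ts1Cje Trib1 than in B6 Trib1. Its relative Bnip3l rose by 0.42 between genotypes without Trib1 and by 0.66 and 0.14 in the lines. Bcl2a1a, a guardian, fell by 1.35 and by 1.92 in the lines, from 1384 ± 14.1 to 536 ± 40.8 and from 1649 ± 27.9 to 426 ± 32.4. Its value is uncertain between the near-identical copies of that gene. The BH3-only gene Bmf rose by 0.27 and 0.19 in the lines, and the guardian Bcl2l2 fell by 0.21 and 0.295.

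Downstream of the mitochondria, 19 of 21 listed genes of the apoptosome, caspases and their inhibitors were tested. In the lines, 3 rose and 8 fell in the B6 background (median -0.08, 0.03 over all genes) and 3 rose and 7 fell in the Ts1Cje background (median -0.06, 0.02). Between genotypes, 3 rose and 4 fell without Trib1 (median -0.03) and 1 rose and 2 fell with it (median -0.02). The counts called in the lines are to be read against 65.2% and 60.8% of all genes, and those between genotypes against 52.6% and 21.5%. The effector caspase gene Casp6 fell by 0.77 (adjusted p = 4.82e-10) and by 1.32 (adjusted p = 9.47e-13), from 1042 ± 15.7 to 603 ± 12.1 and from 1384 ± 20.8 to 544 ± 18.1. Birc3, an inhibitor of apoptosis, fell by 0.73 and 0.76. Casp9, the caspase that the apoptosome activates, rose by 0.64 (adjusted p = 1.36e-06) and 0.32 (adjusted p = 0.000727), from 168 ± 5.18 to 272 ± 7.52 and from 220.1 ± 23.2 to 277 ± 18.1.

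Caspase 2 (Casp2) and Diablo, which encodes a mitochondrial antagonist of the inhibitors, shared with Bcl2 a lower level in Ts1Cje than in B6 without Trib1. Casp2 fell there by 0.45 (adjusted p = 5.1e-07) and rose by 0.63 from Ts1Cje to Ts1Cje Trib1. Diablo fell by 0.29 without Trib1 (adjusted p = 1.54e-05) and was 0.14 higher in Ts1Cje than in B6 lines (adjusted p = 0.0083), with an interaction of 0.43 (adjusted p = 1.12e-05). Its means were 334 ± 3.84 in B6 and 272 ± 9.16 in Ts1Cje cells, and 350.5 ± 2.16 in B6 Trib1 and 389 ± 2.02 in Ts1Cje Trib1 lines. Birc2, a further inhibitor, fell by 0.51 from B6 to Ts1Cje and by 0.38 from B6 to B6 Trib1.

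Of 14 listed death receptor genes, 12 were tested, and 2 rose and 5 fell in the B6 lines (median -0.11, 0.03 over all genes) and 4 rose and 7 fell in the Ts1Cje lines (median -0.16, 0.02). Between genotypes, 7 rose and 2 fell without Trib1 (median 0.13) and 3 rose and 2 fell with it (median 0.03). Of all genes, 65.2% and 60.8% passed in the first 2 of these comparisons and 52.6% and 21.5% in the others. The TNF receptor gene Tnfrsf1a was 353 ± 12 in B6 and 458 ± 8.84 in Ts1Cje cells, and 198 ± 2.74 in B6 Trib1 and 102 ± 5.53 in Ts1Cje Trib1 lines. It thus rose with the trisomy without Trib1 (0.36, adjusted p = 1.09e-05), was lower in Ts1Cje than in B6 lines (-0.86, adjusted p = 7.17e-09), and had an interaction of -1.22 (adjusted p = 3.42e-09). That is the opposite order of signs from Bcl2. Tnfrsf1b fell by 1.21 in the B6 lines and by 1.815 in the Ts1Cje lines, and was 0.54 lower in Ts1Cje than in B6 lines. Fas, the receptor of Fas ligand, fell by 0.92 in the B6 lines and by 1.41 in the Ts1Cje lines.

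Tnfsf10, which encodes the death ligand TRAIL, had the same signs as Bcl2 between genotypes. Its means were 136 ± 5.79 in B6 and 64.89 ± 6.47 in Ts1Cje cells, and 123 ± 3.58 in B6 Trib1 and 173 ± 17.3 in Ts1Cje Trib1 lines. The differences were -0.92 without Trib1 (adjusted p = 2.16e-07), 0.45 with it (adjusted p = 0.000362) and 1.37 for the interaction (adjusted p = 1.44e-07). From B6 to B6 Trib1 its difference of -0.13 did not pass (adjusted p = 0.0992). Of the necroptosis genes, Mlkl rose by 0.58 and 0.59 in the lines and Ripk3 fell by 0.30 and 0.56.

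Of 29 listed regulators of the family, 23 were tested, and 5 rose and 10 fell in the B6 lines (median -0.08, 0.03 over all genes) and 6 rose and 8 fell in the Ts1Cje lines (median -0.08, 0.02). Between genotypes, 2 rose and 7 fell without Trib1 (median -0.05), and 1 rose and 1 fell with it (median 0.01). The share of all genes called was 65.2%, 60.8%, 52.6% and 21.5% in the same order. Bcl6, a transcriptional repressor, fell from 255 ± 3.21 in B6 to 46.9 ± 13.8 in B6 Trib1 and from 149 ± 23.3 in Ts1Cje to 40.6 ± 5.78 in Ts1Cje Trib1, by 2.15 (adjusted p = 7.61e-09) and 1.56 (adjusted p = 1.56e-07). The kinase gene Pim2, whose product phosphorylates BAD, fell from 509.6 ± 20.2 in B6 to 208 ± 10 in Ts1Cje (-1.23, adjusted p = 1.32e-09) and stood at 535 ± 11.2 and 501 ± 35.1 in the lines. Its relative Pim3 fell by 1.26 and 0.63 in the lines. Akt1, whose product also phosphorylates BAD and restrains FOXO factors, fell by 0.45 (adjusted p = 0.000618) and by 0.66 (adjusted p = 1.79e-05) in the lines. Myc fell by 0.57 from B6 to Ts1Cje (adjusted p = 5.19e-06) and rose by 0.20 and 0.88 in the lines.

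**Figure D5:**
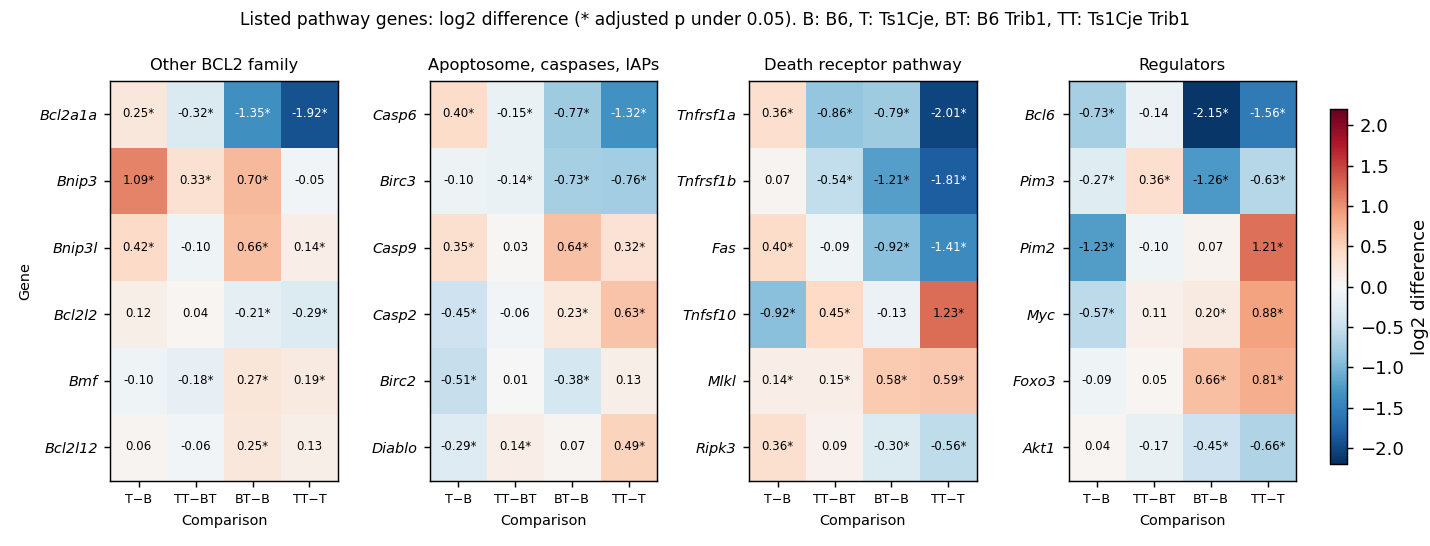
Log2 differences (colour and printed value) of up to 6 genes of each of the 4 pathway lists (rows) in the 4 comparisons (columns), with a star where the adjusted p was under 0.05. Red is higher and blue lower in the first-named group, and Tnfrsf1a and Tnfsf10 have opposite signs in the first and second columns.

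For the 3 members with the widest range of group means, the genes with the most similar profile were found by root mean square distance between log2 profiles over the 12 arrays, each centred on its own mean. For Bcl2, whose group means spanned 2.27 on the log2 scale, these were Dyrk3 (0.12), Adgra3 (0.13) and Gimap9 (0.13). Gimap9 had means of 189.6, 109, 455 and 592 in B6, Ts1Cje, B6 Trib1 and Ts1Cje Trib1, the same order as Bcl2. For Bcl2l11, which spanned 0.97, they were Ppm1k (0.09), Ypel2 (0.10) and Tapt1 (0.11). For Bak1, which spanned 0.90, they were Heatr1 (0.06), Ift172 (0.07) and Timd4 (0.08). Heatr1 had means of 828, 786, 433 and 414 in the same order of groups. These distances are descriptions over 12 arrays in 4 groups. The genes were picked for their likeness on these same arrays, so a shared order of groups is no separate result.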

How the data were processed

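The platform was an Affymetrix mouse array of perfect-match probes. The authors deposited 1 linear intensity per probe set and array; the submitters' processing notes name MAS5. MAS5 uses mismatch probes, which such arrays lack, and no scaling target or genome build is given in the sources used here, so how the intensities were summarised and scaled was not settled. No further scaling was applied. Of the 45141 probe sets, 28898 had 1 symbol in the platform annotation, 551 several and 15588 none, and 104 were controls. A probe set was kept when it exceeded its array's 40th percentile (22.0 to 23.5) in at least 3 of 12 arrays. Values were transformed as log2(intensity + 15). Each gene was represented by its kept probe set of highest mean log2 value, which left 12560 genes.

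The 4 group means were estimated in 1 linear model of the 12 arrays (limma 3.58.1, lmFit and eBayes, R 4.3.3). Tests were two-sided, with Benjamini-Hochberg adjustment over all 12560 genes, or over 28543 probe sets in the probe set fit, which also took kept probe sets that had no symbol or several. Named genes were all members, up to 6 genes per pathway list with the largest difference in any comparison between groups, and the 3 nearest profiles of 3 members. Foxo1, Foxo4 and single genes of the marker lists were named outside this rule. The 4 pathway lists and 9 marker lists came from textbook knowledge. A marker was called dim in a group where no array exceeded its 40th percentile. Members and lists were chosen with earlier results of these data known. Scripts were tested on simulated data. Alternatives covered scaling, offset, filter, choice of probe set, variance model, samples fitted, a replicate block and each array left out in turn. Median centring over all probe sets, dim ones included, was added after seeing the data. Promoters came from RefSeq, GRCm38.p6, by symbol. Sequence of Pmaip1 is not reported here.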

Additional observations from a re-analysis of the deposited data

Results flagged for a closer look

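The genotype difference of Bcl2 differed between cells with and without Trib1. The interaction was 1.18 on the log2 scale (SE 0.07, adjusted p = 2.83e-08 in limma), from -0.79 without Trib1 to 0.38 with it, and the genotypes did not overlap in either pair of groups. Both Bcl2 probe sets passed, and 48.6% of all genes passed the same test. Groups of 3 arrays are too small for a test of single outlying arrays.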

How the results depend on the processing

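Of the alternatives, none turned the direction of a member called in the values reported. All 36 reversals concerned members that had not passed. For Ts1Cje minus B6 they were, with the mean of probe sets, Bcl2l1 0.10, Mcl1 0.073, Bak1 0.123 and Bid 0.039; with median centring, Mcl1 0.043, Bak1 0.038 and Bid 0.066; with quantile normalization, Bak1 0.001 and Bid 0.015. For Ts1Cje Trib1 minus B6 Trib1 they were Bcl2l1 0.006 with median centring over all probe sets, and Bcl2l1 0.056 and Bak1 0.138 with the mean of probe sets. For Ts1Cje Trib1 minus Ts1Cje it was Bad, 0.011 with the mean of probe sets. For the interaction they were Bcl2l1 at -0.003 with quantile normalization; Bcl2l1 at -0.017, Bid at -0.048 and Pmaip1 at -0.044 with median centring; Bak1 at 0.01 with median centring over all probe sets; and Bcl2l1 at -0.044 and Bak1 at 0.015 with the mean of probe sets. With 1 array left out, reversed values came within the ranges, for Ts1Cje minus B6, of -0.082 to 0.034 for Bak1 and -0.032 to 0.017 for Bid. For Ts1Cje Trib1 minus B6 Trib1 the ranges were -0.036 to 0.048 for Bcl2l1, -0.093 to 0.009 for Bak1 and -0.055 to 0.040 for Bbc3. For Ts1Cje Trib1 minus Ts1Cje the range was -0.082 to 0.041 for Bad, and for the interaction -0.090 to 0.050 for Bak1 and -0.029 to 0.110 for Pmaip1. The count of members called between the line groups ranged from 1 to 4 with 1 array left out. The count with an interaction ranged from 1 to 2 with 1 array left out, and was 3 with quantile normalization, 4 with median centring, 4 with the mean of probe sets and 2 with trend and robust moderation. Of the members' other values under the alternatives, 27 lost a call, 12 gained one and 996 kept direction and call. The causes were not tested.

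Replicate numbers were not used as pairs: over 18 pairs of same-numbered arrays, deviations from group means correlated across genes at -0.45 to 0.35, and 3 of 12 arrays resembled their own number best. With the replicate block the members with an interaction numbered 2 and those called between the line groups 3. Bcl2l11 was then not called between the line groups (adjusted p = 0.0614) and the Bbc3 interaction was (adjusted p = 0.0252); the block changed no other call of a member. Genes called with the block numbered 6352, 2485, 8017, 7519 and 5818 in the 5 tests. The balance over all genes depended on scaling. Median centring over kept probe sets gave 4719 higher and 2538 lower for Ts1Cje minus B6, in place of 2925 and 3677, and 6356 and 2751 for B6 Trib1 minus B6, in place of 4283 and 3907, where it moved the median of all genes from 0.03 to 0.13. For the interaction it gave 2417 higher and 3700 lower and quantile normalization 2957 and 2948, in place of 3568 and 2541, and for Ts1Cje minus B6 quantile normalization gave 3455 and 3107. Signal over background was not given for single probes, so dim probe sets are known only from their low intensity.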
